A study of Mus musculus with 15 samples.

Results

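The 40 genes described here are extracellular matrix and stromal genes, a set listed by name with earlier results of these data known and found among the 16886 genes of the deposited table. No threshold on a measured value enters the list. They comprise 12 collagen chains, matrix glycoproteins and proteoglycans, the enzymes that fold, crosslink and cut the matrix, and receptors, contractile proteins and secreted factors of fibroblasts, pericytes and smooth muscle. Of the 40, 38 were found under the listed symbol, and Ccn1 and Ccn2 were found through their gene identifiers under the older symbols Cyr61 and Ctgf.

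The libraries came from bone macrophages of wild-type mice (WT), of mice with a knockout of VLDLR (VLDLR_KO), a receptor for triglyceride-rich lipoproteins and reelin, and of mice with a knockout of ROBO4 (ROBO4_KO), a receptor of the roundabout family best known in endothelium. Cells of every genotype had been kept in vitro for 14 days in 20 ng/ml M-CSF, the growth factor of macrophages, and the strain was given as C57BL6J throughout. Each genotype had 5 libraries of total RNA, sequenced in pairs on a BGISEQ-500. The labels do not give the deleted exons, the age or sex of the mice or a purity check of the cultures, nor whether the replicates of a genotype come from different mice or dishes. The p-values below therefore measure only the spread between these libraries, which may be technical. The sample codes come in 2 forms with no stated meaning. The digit stands before the letter B in WT 3 to 5, ROBO4_KO 1 and 2 and VLDLR_KO 1 and 2, and after it in the other 8 libraries, so each form holds all 3 genotypes.

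The extracellular matrix is a mesh of secreted collagens, glycoproteins and proteoglycans, built mainly by fibroblasts, osteoblasts and other mesenchymal cells. Macrophages make little fibrillar collagen. They take part in matrix turnover through proteases such as MMP14 and inhibitors such as TIMP2, and they also secrete fibronectin. A bone marrow culture in M-CSF starts from cells that include stromal precursors, so a macrophage culture can carry RNA of both kinds. In bulk RNA, fewer cells of one type and less RNA per cell cannot be told apart.

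Libraries held 18132866 to 19005966 estimated counts. Macrophage markers were abundant in every library, with a summed level of 13970 to 43353 CPM (the share of a library's counts as scaled by edgeR's TMM factors) over 15 genes. Vldlr was at 1 to 9 counts in VLDLR_KO against 5 to 36 in WT and 2 to 38 in ROBO4_KO, so the ranges overlap. Robo4 was at 0 counts in all ROBO4_KO libraries but at 0 to 4 in WT, which checks little. The libraries WT 3 and ROBO4_KO 2 stand apart from the rest for the matrix genes, so results that rest on them are given with and without them.

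Across the 15 libraries the 40 genes moved largely as a block, with wide differences between single libraries of WT and of ROBO4_KO. WT 3 or ROBO4_KO 2 was the highest library for 36 of the 40 genes, and these were the top pair of libraries for 26. Averaged over the 40 genes on the log2 scale and set against the mean of all libraries, the level was -0.17, 0.09, 2.22, 0.81 and 1.19 in WT 1 to 5, -0.18, 2.16, -0.996, -0.73 and -0.71 in ROBO4_KO 1 to 5, and -1.58, -0.51, -0.50, -0.41 and -0.69 in VLDLR_KO 1 to 5. WT 3 and ROBO4_KO 2 were the highest of all, and the lowest was VLDLR_KO 1. All 5 VLDLR_KO libraries lay below all 5 WT libraries, and ROBO4_KO overlapped both.

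**Figure D1:**
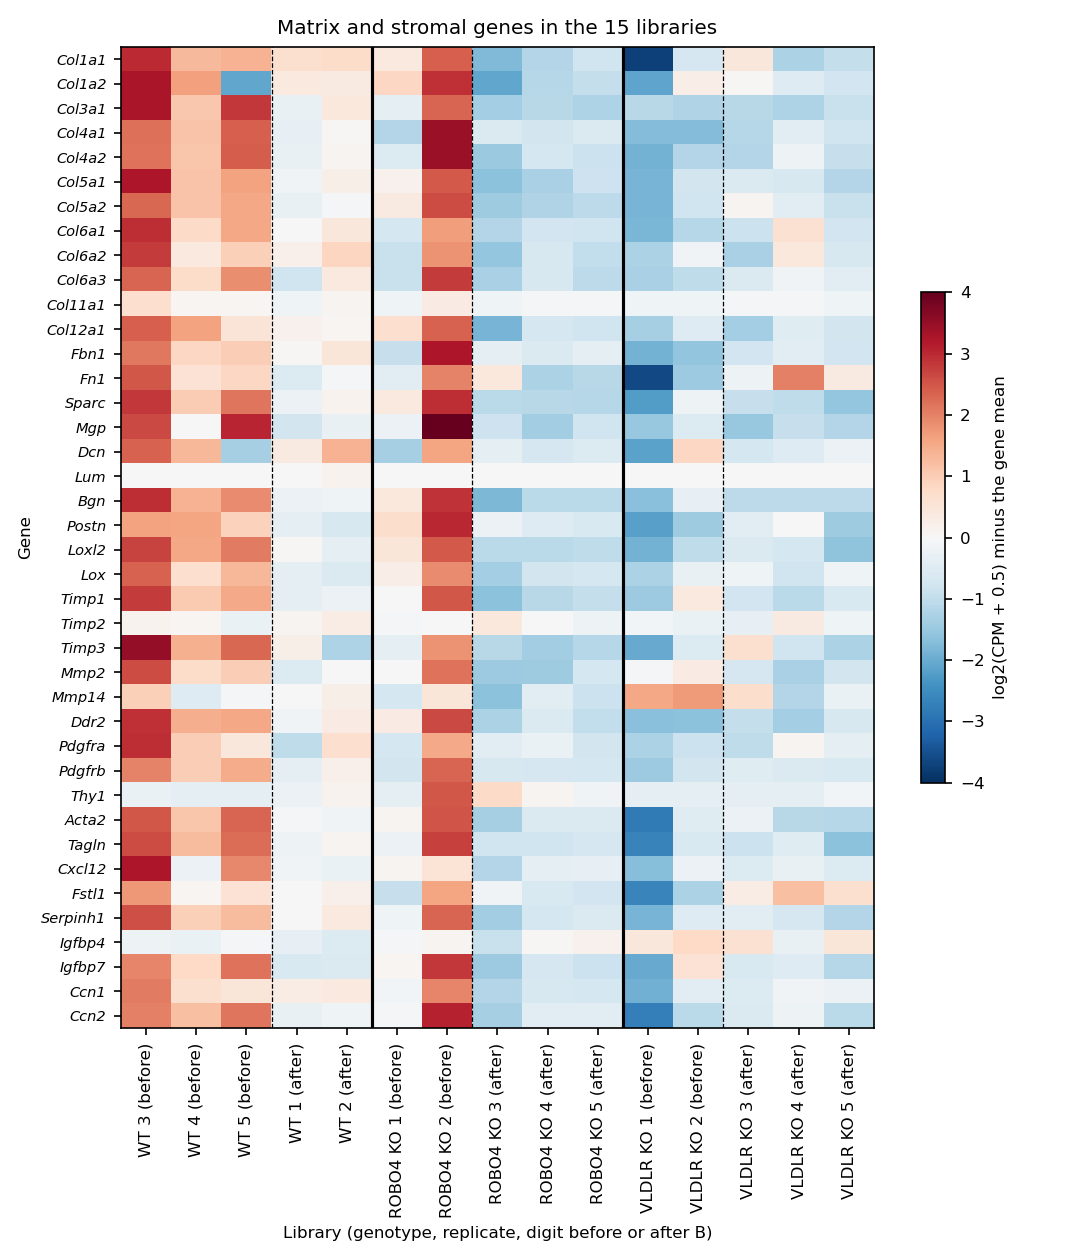
Heat map of log2(CPM + 0.5) minus the gene's mean over all libraries (red above, blue below, colours ending at 4 in either direction), with the 40 genes in rows and the 15 libraries in columns, grouped by genotype (solid lines) and by the position of the digit in the sample code (dashed lines). WT 3 and ROBO4_KO 2 are red for most genes, VLDLR_KO 1 is the darkest blue column, and Timp2 and Igfbp4 differ little between libraries.

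A filter on low counts left 37 of the 40 genes for testing. The filter passes a gene that is high in one group alone, so counts over the 37 do not stand for all members. The other 3 were Col11a1, a minor fibrillar collagen of cartilage, Lum, the small leucine-rich proteoglycan lumican, and Thy1, a glycosylphosphatidylinositol-anchored surface protein of fibroblasts and T cells. Lum had 1 count in WT 2 and 0 counts in the other 14 libraries, so this fibroblast marker was at or near 0. Of the other fibroblast markers among the members, Col1a1, Col1a2, Col3a1, Dcn, Pdgfra and Postn were at 9.94 to 84.7 CPM in WT 3. Thy1 was low there. Col11a1 had at most 8 counts, in WT 3. Thy1 had 61 counts in ROBO4_KO 2 (3.16 CPM), 11 in ROBO4_KO 3 and at most 4 elsewhere, so it was high in ROBO4_KO 2 without being high in WT 3 (1 count).

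Promoter letters from RefSeq (GRCm38.p6) are shown for 4 members on which the results below turn. They are Col3a1 and Ddr2, which were lower in VLDLR_KO than in WT, Igfbp4, which was higher, and Ccn1, which lay lower in all VLDLR_KO libraries and whose promoter holds the motif searched for. Each line gives the 150 bases just before the start site, 5′ to 3′ on the gene's strand. Capitals mark TATAAA, the TATA box core, which was searched on both strands (TATAAA or TTTATA).
Col3a1, chr1:45311388-45311537, plus strand: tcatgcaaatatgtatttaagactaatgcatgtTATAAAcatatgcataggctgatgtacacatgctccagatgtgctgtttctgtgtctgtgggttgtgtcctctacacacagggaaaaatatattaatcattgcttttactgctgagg
Ddr2, chr1:170088945-170089094, minus strand: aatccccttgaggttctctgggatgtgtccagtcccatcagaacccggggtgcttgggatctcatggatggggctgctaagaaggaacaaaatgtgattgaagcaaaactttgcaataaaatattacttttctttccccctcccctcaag
Igfbp4, chr11:99041094-99041243, plus strand: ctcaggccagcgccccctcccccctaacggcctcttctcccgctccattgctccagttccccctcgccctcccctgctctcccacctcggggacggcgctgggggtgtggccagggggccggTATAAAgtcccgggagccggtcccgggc
Ccn1, chr3:145649986-145650135, minus strand: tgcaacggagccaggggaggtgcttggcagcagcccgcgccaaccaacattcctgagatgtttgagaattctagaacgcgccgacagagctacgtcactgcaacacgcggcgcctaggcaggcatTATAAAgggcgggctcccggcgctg
The motif began 28 bases before the start in Igfbp4 and 25 before it in Ccn1. In Col3a1 it began 117 bases before the annotated start, and the Ddr2 window held none. The start sites used for Ddr2 and Igfbp4 lie inside the span RefSeq gives for the gene. Of the 40 members, 26 had an entry, with 28 windows, and 4 of these windows (14.3%) held the motif, against 7.57% of 32851 windows of the same length. A match is a description of the letters only. Called and uncalled members were found both with and without it.

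VLDLR_KO was first compared with WT, which asks how the matrix genes differ in macrophages that lack the receptor. Matrix and stromal genes lay lower in VLDLR_KO nearly throughout, and few passed the test. Col3a1, Ddr2 and Loxl2 were lower and Igfbp4 was higher by edgeR at an adjusted p under 0.05. That is 4 of the 37 tested members, against 9.31% of all 11668 genes (called lower, 3 members against 5.42%, called higher, 1 member against 3.89%). The share called is near the background. The fold changes were not. The median log2 fold change of the 37 members was -2.47 against 0.03 over all genes tested, 35 of 37 were negative, and 29 had an unadjusted p under 0.05. Here and below, counts of negative members and of members at an unadjusted p under 0.05 stand without the share over all genes. They are descriptive only. The digit stands before B in 3 of 5 WT and 2 of 5 VLDLR_KO libraries. With the form as a covariate the median was -1.74 against 0.02 over all genes, and 3 members were called (background 16.8%), Col3a1 (-4.10, adjusted p 0.0115 in edgeR) and Ddr2 (-2.73, adjusted p 0.0390 in edgeR) lower and Igfbp4 (0.76, adjusted p 0.0140 in edgeR) higher. All 5 VLDLR_KO libraries lay below all 5 WT libraries for 14 of the 37, against 5.45% of all genes. Those 14 were Col1a1, Col3a1, Col4a1, Col5a1, Col12a1, Fbn1, Bgn, Loxl2, Ddr2, Pdgfrb, Acta2, Tagln, Serpinh1 and Ccn1.

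The number of calls moved with single libraries, also with ROBO4_KO 2, which is in neither group, in a fit over all 15 libraries. Without ROBO4_KO 2 edgeR called 1 member higher and 24 lower in VLDLR_KO than in WT, against 5.74% of all genes called lower, with the same median log2 fold change of -2.47. DESeq2 on all 15 libraries called 1 higher and 23 lower (background 7.69%). Without WT 3 edgeR called no member, with 18 at an unadjusted p under 0.05 and a median of -1.87. Without VLDLR_KO 3 it also called none (27 at an unadjusted p under 0.05), without VLDLR_KO 1 or 2 it called Col3a1 alone, without VLDLR_KO 5 Ddr2 alone, without WT 4 or WT 5 both of these, and without ROBO4_KO 3 it called 7. The count of calls thus ran from 0 to 25 when single libraries were left out, while the median stayed between -2.67 and -1.87.

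Fibrillar collagens give tissue its tensile strength. Type I (Col1a1 with Col1a2) and type III (Col3a1) form the fibres, and type V starts them. Of the 6 genes 5 were tested, 1 was called lower, and log2 fold changes ran from -5.01 to -2.10. Col3a1 (chromosome 1, 45311538 to 45349706) had the largest change of any member. Col3a1 levels were 0.671, 1.43, 13.3, 2.49 and 9.59 CPM in WT 1 to 5. They were 0.586, 6.73, 0.0555, 0.156 and 0.102 CPM in ROBO4_KO 1 to 5 and 0.163, 0.119, 0.159, 0.112 and 0.265 CPM in VLDLR_KO 1 to 5. In counts this was 12 to 255 per WT library and 2 to 5 per VLDLR_KO library. The groups did not overlap, and ROBO4_KO 3 to 5 were as low as VLDLR_KO, at 1 to 3 counts. The log2 fold change was -5.01 (SE 1.30), with an adjusted p of 0.0248 in edgeR. At so few counts it depends on the prior count of the fit, and the means were 5.49 ± 5.61 CPM in WT and 0.163 ± 0.0612 CPM in VLDLR_KO (SD, n = 5). Without WT 3 it was -4.38, with an adjusted p of 0.0597, and the call was also lost without VLDLR_KO 3 (0.0562) or VLDLR_KO 5 (0.0537).

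For Col1a1, WT 1 to 5 gave 9.67, 10.6, 51.7, 15.8 and 16.6 CPM. In ROBO4_KO Col1a1 was at 8.21, 34.1, 1.44, 2.45 and 3.33 CPM and VLDLR_KO 1 to 5 gave 0, 3.63, 8.56, 2.23 and 2.91 CPM. All VLDLR_KO libraries lay below all WT libraries, and VLDLR_KO 1 had 0 counts, where a count of 3 would be 0.163 CPM. WT 1 to 5 held Col1a2 at 11.2, 10.96, 84.7, 27.2 and 1.599 CPM. The ROBO4_KO libraries held 15.1, 66.3, 1.61, 3.49 and 4.04 CPM and VLDLR_KO 1 to 5 at 1.58, 10.1, 8.61, 5.69 and 4.71 CPM. WT 5 breaks the pattern here, since it held little Col1a2 while its Col1a1 was the second highest of WT. The ratio of Col1a1 to Col1a2 in the authors' length-scaled FPKM was 9.12 in WT 5 and 0.314 to 0.870 in the other libraries, apart from VLDLR_KO 1, which had Col1a1 at 0. The partner chains of one protein thus came apart in WT 5 and in VLDLR_KO 1 (0 counts against 29). Neither gene passed the test, with log2 fold changes of -2.59 (SE 0.96, adjusted p 0.111 in edgeR) and -2.15 (SE 1.03, adjusted p 0.219 in edgeR). Col5a1 was at 2.01 to 25.7 CPM in WT and 0.272 to 1.37 in VLDLR_KO without overlap, and Col5a2 at 3.30 to 22.3 and 0.761 to 4.44 with overlap.

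Col4a1 and Col4a2 encode the chains of the basement membrane collagen, type VI collagen (Col6a1, Col6a2, Col6a3) forms beaded filaments around cells, and Col12a1 decorates fibrils. None of these 6 genes was called, although all 6 were negative, between -2.86 and -2.37, with unadjusted p under 0.05. In replicates 1 to 5 Col4a1 was at 3.35, 4.51, 21.96, 10.3 and 24.8 CPM in WT. It was at 1.65, 53.3, 2.78, 2.45 and 2.76 CPM in ROBO4_KO and at 0.978, 0.951, 1.69, 3.18 and 2.33 CPM in VLDLR_KO. Col4a2 levels were 2.12, 3.02, 14.2, 6.45 and 16.8 CPM in WT 1 to 5. They were 1.705, 34.8, 0.667, 1.51 and 1.28 CPM in ROBO4_KO 1 to 5 and 0.3804, 0.951, 0.951, 2.34 and 1.22 CPM in VLDLR_KO 1 to 5. ROBO4_KO 2 was far the highest for both, above WT 3, and WT 5 stood level with WT 3. For Col4a1 the WT and VLDLR_KO libraries did not overlap. The genes lie head to head on chromosome 8, and their RefSeq spans overlap between 11312805 and 11312889, so reads there could have been given to either. Their FPKM ratio was 0.929 to 2.10 in 13 libraries, 2.5 in VLDLR_KO 1 and 4.1 in ROBO4_KO 3, which had 12 counts of Col4a2. Over the type VI chains and Col12a1, WT ranged from 0.839 to 22.1 CPM and VLDLR_KO from 0.159 to 3.96 CPM.

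Of the glycoproteins, fibronectin (Fn1) links cells to collagen, fibrillin-1 (Fbn1) builds microfibrils, SPARC and periostin (Postn) bind collagen, and matrix Gla protein (Mgp) holds back calcification. None was called, and log2 fold changes ran from -4.27 for Mgp to -0.67 for Fn1. For Sparc, WT 1 to 5 gave 8.44, 11.1, 73.9, 20.95 and 45.5 CPM. In ROBO4_KO Sparc was at 13.3, 80.8, 4.499, 4.38 and 4.3 CPM and VLDLR_KO 1 to 5 gave 1.74, 8.62, 5.02, 4.74 and 3.07 CPM. WT and VLDLR_KO overlapped only in VLDLR_KO 2 against WT 1. WT 1 to 5 held Mgp at 0.447, 0.799, 9.37, 1.06 and 12.6 CPM. The ROBO4_KO libraries held 0.852, 32.05, 0.389, 0.104 and 0.4096 CPM and VLDLR_KO 1 to 5 at 0.0543, 0.595, 0.0529, 0.335 and 0.212 CPM. ROBO4_KO 2, WT 5 and WT 3 were high and the other libraries near 1 CPM or below, where 3 counts are 0.154 to 0.178 CPM. Mgp gave -4.27 (SE 1.58, adjusted p 0.109 in edgeR).

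Fn1 (chromosome 1, 71585473 to 71653280) did not follow the collagens. In replicates 1 to 5 Fn1 was at 53.8, 76.9, 447, 118 and 142 CPM in WT. It was at 57.9, 313, 105, 32.6 and 36.5 CPM in ROBO4_KO and at 5.98, 28.8, 69.2, 323 and 101 CPM in VLDLR_KO. VLDLR_KO 4 was as high as ROBO4_KO 2 while its Col1a1 was at 2.23 CPM, and VLDLR_KO 1 was the lowest of all libraries. The log2 fold change was -0.67 (SE 0.88, adjusted p 0.687 in edgeR), and it turned to 0.11 without WT 3. Postn was at 2.80 to 15.3 CPM in WT and 0.652 to 4.63 in VLDLR_KO, and Fbn1 at 1.40 to 7.39 and 0 to 0.837 without overlap.

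Fn1 also differed in which transcript carried it. Transcript NM_001276408.1 made up 36.9%, 49.1% and 45.1% of the gene's FPKM in WT 3 to 5 and 52.3% and 39.9% in ROBO4_KO 1 and 2. It made up 10.3% and 3.97% in WT 1 and 2, 2.52% to 5.62% in ROBO4_KO 3 to 5, and 2.07% to 6.49% in VLDLR_KO, apart from 18.5% in VLDLR_KO 2. Transcript NM_001276411.1 ran the other way. It was at 0.783% to 3.77% in those 5 libraries of WT and ROBO4_KO with the digit before B, at 8.82% to 14.3% in VLDLR_KO 1 and 2, and at 23.3% to 50.4% in the 8 libraries with the digit after B. NM_001276410.1 held between 27.0% and 48.9% in all libraries. A predicted transcript, XM_006495699.3, was the largest in VLDLR_KO 1, at 39.0% of a gene with 110 counts there. It was at 27.1% in VLDLR_KO 2, at 13.0% to 24.7% in the other 5 libraries with the digit before B and at 1.27% to 8.17% after B. The shares of the first form did not overlap between code forms within WT, within ROBO4_KO or within VLDLR_KO. They are estimates from short reads and were described, not tested. Of the 91 transcripts of the members, 56 passed the filter. None was called between VLDLR_KO and WT by edgeR, against 2.15% of all transcripts called. Before adjustment 29 had a p under 0.05 by edgeR, a count given without the share over all transcripts. DESeq2 was not run on transcripts.

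Small proteoglycans bind collagen fibrils and growth factors. Bgn levels were 13.1, 13.6, 122, 40.9 and 58.3 CPM in WT 1 to 5. They were 20.9, 117, 4.11, 6.98 and 7.01 CPM in ROBO4_KO 1 to 5 and 4.51, 12.1, 7.29, 7.25 and 7.15 CPM in VLDLR_KO 1 to 5. Biglycan (Bgn, chromosome X, 73483601 to 73495936) was thus lower in all VLDLR_KO libraries than in any WT library, with VLDLR_KO 2 close to WT 1. Its log2 fold change of -2.69 (SE 0.89) missed the threshold, with an adjusted p of 0.0727 in edgeR, and was past it without ROBO4_KO 2 (0.0144). Decorin (Dcn) was at 0.373 CPM in WT 5 and 2.35 to 10.9 CPM in the other WT libraries, so WT 5 was low for it as for Col1a2. In VLDLR_KO it was at 0 to 3.45 CPM.

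Serpinh1 (HSP47) is the chaperone of procollagen, and Lox and Loxl2 oxidise lysines so that collagen and elastin can be crosslinked. Loxl2 (chromosome 14, 69608692 to 69695834) was called lower. For Loxl2, WT 1 to 5 gave 2.07, 1.43, 15.4, 6.77 and 9.86 CPM. In ROBO4_KO Loxl2 was at 2.98, 13.05, 0.667, 0.678 and 0.717 CPM and VLDLR_KO 1 to 5 gave 0.163, 0.713, 1.16, 1.004 and 0.318 CPM. The groups WT and VLDLR_KO did not overlap, and ROBO4_KO 3 to 5 lay within the VLDLR_KO range. The log2 fold change was -3.39 (SE 0.96), with an adjusted p of 0.0390 in edgeR, and 0.0997 without WT 3. Over 26 other settings the direction held in all, and 13 of them put the adjusted p above 0.05, among them leaving out any one of WT 3 to 5 or VLDLR_KO 1 to 5 (0.0552 to 0.0997). With the code form as a covariate the change was -2.33 (adjusted p 0.0552 in edgeR), and Loxl2 itself went with the form (-2.16 after B against before B, adjusted p 0.0128 in edgeR). With code form and digit as a replicate block it was -2.45 (adjusted p 0.108 in edgeR). WT 1 to 5 held Lox at 8.61, 7.59, 60.9, 18.6 and 29.8 CPM. The ROBO4_KO libraries held 13.96, 44.5, 4.17, 6.72 and 6.86 CPM and VLDLR_KO 1 to 5 at 4.51, 9.28, 10.3, 6.47 and 10.1 CPM. VLDLR_KO 2, 3 and 5 lay above WT 1 and 2, and Lox was not called (-1.63, SE 0.66, adjusted p 0.145 in edgeR). Serpinh1 was at 2.91 to 19.5 CPM in WT and 0.435 to 1.96 in VLDLR_KO, without overlap.

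**Figure D2:**
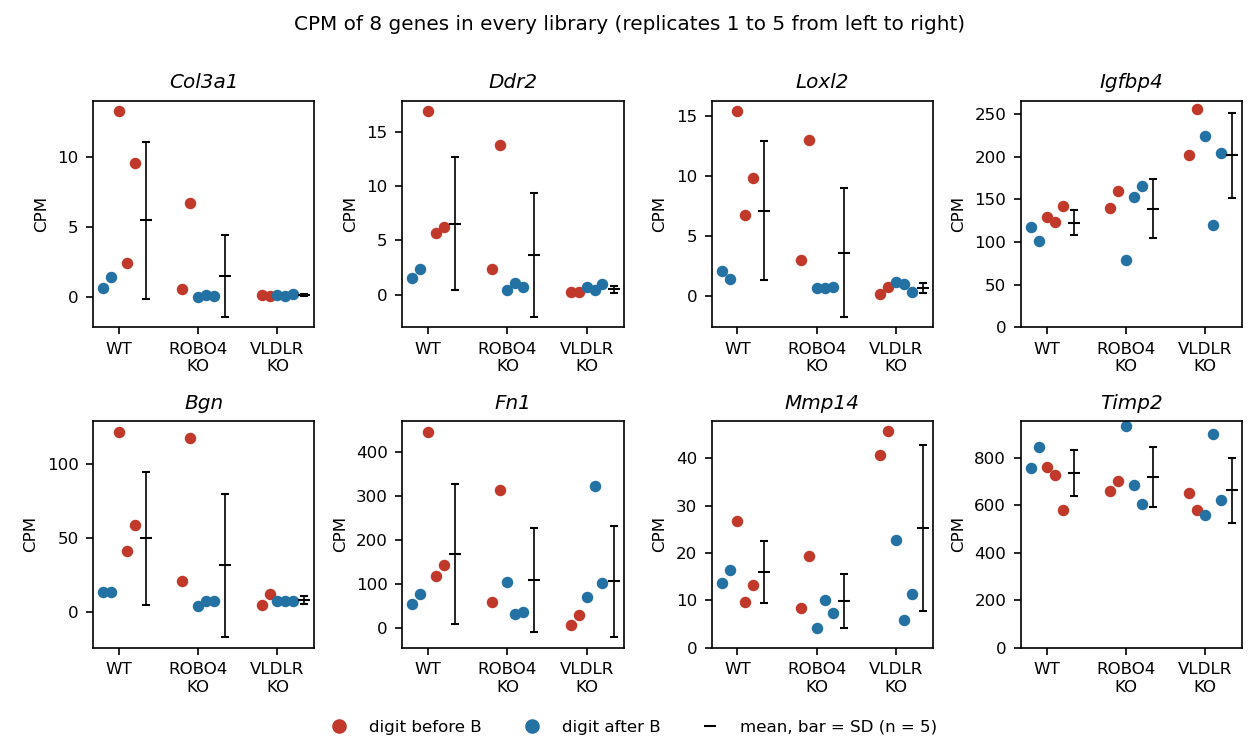
CPM (vertical axis, from 0 where no error bar goes lower) of 8 genes in each library, replicates 1 to 5 from left to right within WT, ROBO4_KO and VLDLR_KO, red with the digit before B and blue after it; bars are mean and SD (n = 5). Col3a1, Ddr2, Loxl2 and Bgn are high in WT 3 and ROBO4_KO 2 and low throughout VLDLR_KO, Igfbp4 is at 202 to 256 CPM in 4 of 5 VLDLR_KO libraries, and Timp2 lies at 560.2 to 934 CPM in every genotype.

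Proteases and their inhibitors set how fast matrix is turned over, and here the members split. In replicates 1 to 5 Timp2 was at 758, 847, 761, 729 and 581 CPM in WT. It was at 661, 705, 934, 685 and 604 CPM in ROBO4_KO and at 651, 581, 560.2, 899 and 622 CPM in VLDLR_KO. Timp2 (chromosome 11, 118301061 to 118355411), which inhibits MMP2 and helps MMP14 activate it, was the most abundant member per length, with a mean FPKM of 204. Its libraries overlapped fully between genotypes, and WT 3 was not high (log2 fold change -0.15, SE 0.15, adjusted p 0.582 in edgeR). Mmp14 levels were 13.8, 16.3, 26.9, 9.52 and 13.2 CPM in WT 1 to 5. They were 8.26, 19.3, 4.11, 10.01 and 7.37 CPM in ROBO4_KO 1 to 5 and 40.8, 45.8, 22.8, 5.86 and 11.3 CPM in VLDLR_KO 1 to 5. Mmp14, a membrane-anchored collagenase, was highest in VLDLR_KO 1 and 2, and VLDLR_KO 4 and 5 lay below WT 1. It was not called (0.67, SE 0.51, adjusted p 0.453 in edgeR).

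For Timp3, WT 1 to 5 gave 5.03, 1.48, 53.4, 12.1 and 22.5 CPM. In ROBO4_KO Timp3 was at 3.04, 15.7, 1.67, 1.303 and 1.64 CPM and VLDLR_KO 1 to 5 gave 0.652, 2.73, 6.82, 2.17 and 1.43 CPM. Timp3, an inhibitor that binds to matrix, was highest in WT 3, and VLDLR_KO 3 lay above WT 1 and 2. Timp3 was not called (-2.77, SE 0.95, adjusted p 0.0825 in edgeR). Timp1 was at 2.96 to 31.1 CPM in WT and 1.14 to 5.41 in VLDLR_KO, and Mmp2, a gelatinase of stromal cells, at 1.45 to 17.2 and 0.669 to 3.09.

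Ddr2 is a receptor tyrosine kinase that is switched on by fibrillar collagen, and the PDGF receptors Pdgfra and Pdgfrb mark fibroblasts and pericytes. WT 1 to 5 held Ddr2 at 1.57, 2.34, 16.9, 5.71 and 6.18 CPM. The ROBO4_KO libraries held 2.34, 13.8, 0.444, 1.04 and 0.666 CPM and VLDLR_KO 1 to 5 at 0.217, 0.238, 0.687, 0.3904 and 0.953 CPM. Ddr2 (chromosome 1, 169972307 to 170110836) was lower in all VLDLR_KO libraries than in any WT library. The log2 fold change was -3.69 (SE 0.98), with an adjusted p of 0.0284 in edgeR. Without WT 3 it was -2.97, with an adjusted p of 0.0814, and leaving out 4 single libraries of VLDLR_KO (replicates 1 to 4) each raised it to between 0.0525 and 0.0570. Pdgfra was at 0.168 to 9.94 CPM in WT and 0.0543 to 0.948 in VLDLR_KO, and Pdgfrb at 0.895 to 6.61 and 0.163 to 0.793 without overlap.

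Acta2 and Tagln encode smooth muscle actin and transgelin of contractile cells and myofibroblasts. In replicates 1 to 5 Acta2 was at 6.82, 6.45, 42.6, 16.2 and 38.2 CPM in WT. It was at 7.89, 43.2, 2.55, 4.64 and 4.66 CPM in ROBO4_KO and at 0.598, 4.99, 6.08, 3.07 and 3.02 CPM in VLDLR_KO. Tagln levels were 2.57, 3.31, 21.4, 8.09 and 16.4 CPM in WT 1 to 5. They were 2.56, 23.3, 1.56, 1.56 and 1.74 CPM in ROBO4_KO 1 to 5 and 0.0543, 1.84, 1.48, 2.06 and 0.636 CPM in VLDLR_KO 1 to 5. WT 3, WT 5 and ROBO4_KO 2 were high for both, and VLDLR_KO lay below WT without overlap. Neither passed the test, with adjusted p of 0.0627 and 0.0586 in edgeR, and both did without ROBO4_KO 2 (0.0183 and 0.0131).

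Among secreted factors, Igfbp4 and Igfbp7 bind insulin-like growth factors, Cxcl12 is the chemokine that keeps blood-forming cells in the marrow, Fstl1 is a follistatin-like glycoprotein, and Ccn1 and Ccn2 are matricellular proteins. Igfbp4 (chromosome 11, 99040005 to 99052655) was the one member called higher. For Igfbp4, WT 1 to 5 gave 118, 102, 129, 123 and 142 CPM. In ROBO4_KO Igfbp4 was at 139.7, 159, 78.8, 152 and 165 CPM and VLDLR_KO 1 to 5 gave 202, 256, 224, 120.1 and 205 CPM. All but VLDLR_KO 4 lay above every WT library, and WT 3 and ROBO4_KO 2 were not out of the ordinary. The log2 fold change was 0.71 (SE 0.21), a 1.64-fold difference, with an adjusted p of 0.0414 in edgeR. The call is close to the threshold: over 26 other settings the direction held in all and the adjusted p ran from 0.00808 to 0.172, above 0.05 in 16. Among these were leaving out any one WT library, ROBO4_KO 1 or 4, or VLDLR_KO 1, 2, 3 or 5 (0.0521 to 0.0907).

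WT 1 to 5 held Fstl1 at 9.28, 10.9, 32.3, 9.95 and 14.02 CPM. The ROBO4_KO libraries held 4.69, 28.9, 8.33, 5.99 and 5.27 CPM and VLDLR_KO 1 to 5 at 1.09, 3.57, 11.6, 22.3 and 14.7 CPM. VLDLR_KO 3 to 5 lay with WT, and VLDLR_KO 1 and 2 below it. In replicates 1 to 5 Ccn2 was at 4.36, 4.74, 23.6, 13.1 and 25.4 CPM in WT. It was at 5.17, 49.3, 1.83, 3.804 and 3.84 CPM in ROBO4_KO and at 0.3804, 2.32, 3.49, 4.68 and 2.28 CPM in VLDLR_KO. ROBO4_KO 2, WT 5 and WT 3 were high and VLDLR_KO 1 low. Neither was called (Fstl1 -0.52, SE 0.68, adjusted p 0.682, and Ccn2 -2.43, SE 0.90, adjusted p 0.109 in edgeR). Cxcl12 was at 15.1 CPM in WT 3, 5.70 in WT 5 and only 1.92 in ROBO4_KO 2, so the high libraries were not alike for every gene. In VLDLR_KO Cxcl12 was at 0 to 0.892 CPM. Igfbp7 was at 1.68 to 14.4 CPM in WT and 0.326 to 4.40 in VLDLR_KO, and Ccn1 at 2.57 to 10.1 and 0.163 to 1.78 without overlap.

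ROBO4_KO was compared with the same WT libraries, to ask how the genes differ without ROBO4. No member was called by edgeR (0 of 37, against 0.334% of all genes), and 2 had an unadjusted p under 0.05, Cxcl12 (-2.23, SE 0.88) and Timp3 (-2.02, SE 0.91). DESeq2 also called 0, with 4 at an unadjusted p under 0.05. The median log2 fold change was -0.67, against 0.00 over all genes, and 33 of 37 were negative. ROBO4_KO 2 decides these values: without it the median was -2.34, 36 of 37 were negative and 31 had an unadjusted p under 0.05, yet none was called. Without WT 3 the median was -0.05. In both knockouts members were set against the same WT libraries, so the values of the pair are not independent.

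VLDLR_KO against ROBO4_KO gave 0 calls by edgeR (against 7.61% of all genes), 18 of 37 at an unadjusted p under 0.05 and a median of -1.68. The lowest adjusted p were 0.0873 for Fbn1 (-3.19, SE 1.07) and 0.0888 for Ddr2 (-2.85, SE 0.96) and Mgp (-4.75, SE 1.60), while Mmp14 was at 1.37 (SE 0.51, adjusted p 0.127 in edgeR). DESeq2 called 1 higher and 9 lower (background for lower calls 5.68%). Without ROBO4_KO 2 the median was -0.15, with 22 of 37 negative and 2 at an unadjusted p under 0.05. The lower values of most members in VLDLR_KO against ROBO4_KO thus went with that library. Mmp14 (1.76, SE 0.53, adjusted p 0.0676 in edgeR) and Igfbp4 (0.59, SE 0.22, adjusted p 0.156 in edgeR) stayed higher in VLDLR_KO without it, neither past the threshold. Without VLDLR_KO 4, 2 members were called higher, Igfbp4 and Mmp14, and 0 lower.

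Matrix levels also went with the position of the digit in the sample code. With genotype in the model, edgeR called 18 of 37 members lower where the digit stands after B than where it stands before it, and 0 higher (background for lower calls 19.3%). The median log2 difference was -1.70, against -0.02 over all genes, and 36 of 37 were negative. The lowest was Mgp (-4.02, SE 0.94, adjusted p 0.00403 in edgeR), then Col3a1 (-3.07, SE 0.72, adjusted p 0.00404). Without ROBO4_KO 2 the count was 9 and the median -0.80, and over single libraries left out the count ran from 9 (also without WT 1) to 27 (without VLDLR_KO 1), with 11 without WT 2, WT 3, ROBO4_KO 3 or ROBO4_KO 5. Since the meaning of the codes is not given, the form is called only what it is, a form of code.

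In WT all libraries with the digit before B lay above all with it after B for 29 of 37 members (28.4% of all genes), in ROBO4_KO for 25 (27.8%) and in VLDLR_KO for 2, Mmp14 and Mmp2 (28.6%). Such a drop was common in WT and ROBO4_KO and rare in VLDLR_KO.

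Genotypes were also compared within each form. Where the digit stands before B (3 WT and 2 VLDLR_KO libraries), edgeR called 14 of 37 members lower in VLDLR_KO than in WT (background 10.5%) and 1 higher, with a median log2 fold change of -3.64. Col3a1 was at -5.82 (SE 1.43, adjusted p 0.0302), Ddr2 at -5.35 (SE 1.12, adjusted p 0.0186), Loxl2 at -4.61 (SE 0.89, adjusted p 0.0141) and Igfbp4 at 0.81 (SE 0.14, adjusted p 0.00923), all by edgeR. The other 11 lower calls were Ccn2, Col5a1, Col5a2, Col6a1, Col12a1, Lox, Fn1, Timp3, Bgn, Acta2 and Postn. Against ROBO4_KO in the same form 5 were lower (background 6.77%), Ccn2, Col5a2, Ddr2, Loxl2 and Postn, and Igfbp4 was higher. These fits hold WT 3 and ROBO4_KO 2 and were not repeated without them. In ROBO4_KO 2 Ccn2 and Postn were at 49.3 and 41.3 CPM, against 5.17 and 7.78 CPM in ROBO4_KO 1.

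Where the digit stands after B (2 WT and 3 VLDLR_KO libraries, 36 members tested), 5 were called lower in VLDLR_KO than in WT (background 8.92%), Col3a1, Sparc, Bgn, Fbn1 and Dcn, with a median of only -0.75. Sparc was at -1.19 (SE 0.22, adjusted p 0.0106 in edgeR) and Bgn at -0.88 (SE 0.21, adjusted p 0.0274 in edgeR). In this form ROBO4_KO also had 5 members called lower than WT (background 1.29%), Col3a1, Sparc, Bgn, Col1a2 and Ccn1, with a median of -1.12. Col3a1, Sparc and Bgn were in both lists, which share the WT libraries. Between the knockouts in this form only Fstl1 was called, higher in VLDLR_KO (1.31, SE 0.26, adjusted p 0.0149 in edgeR).

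**Figure D3:**
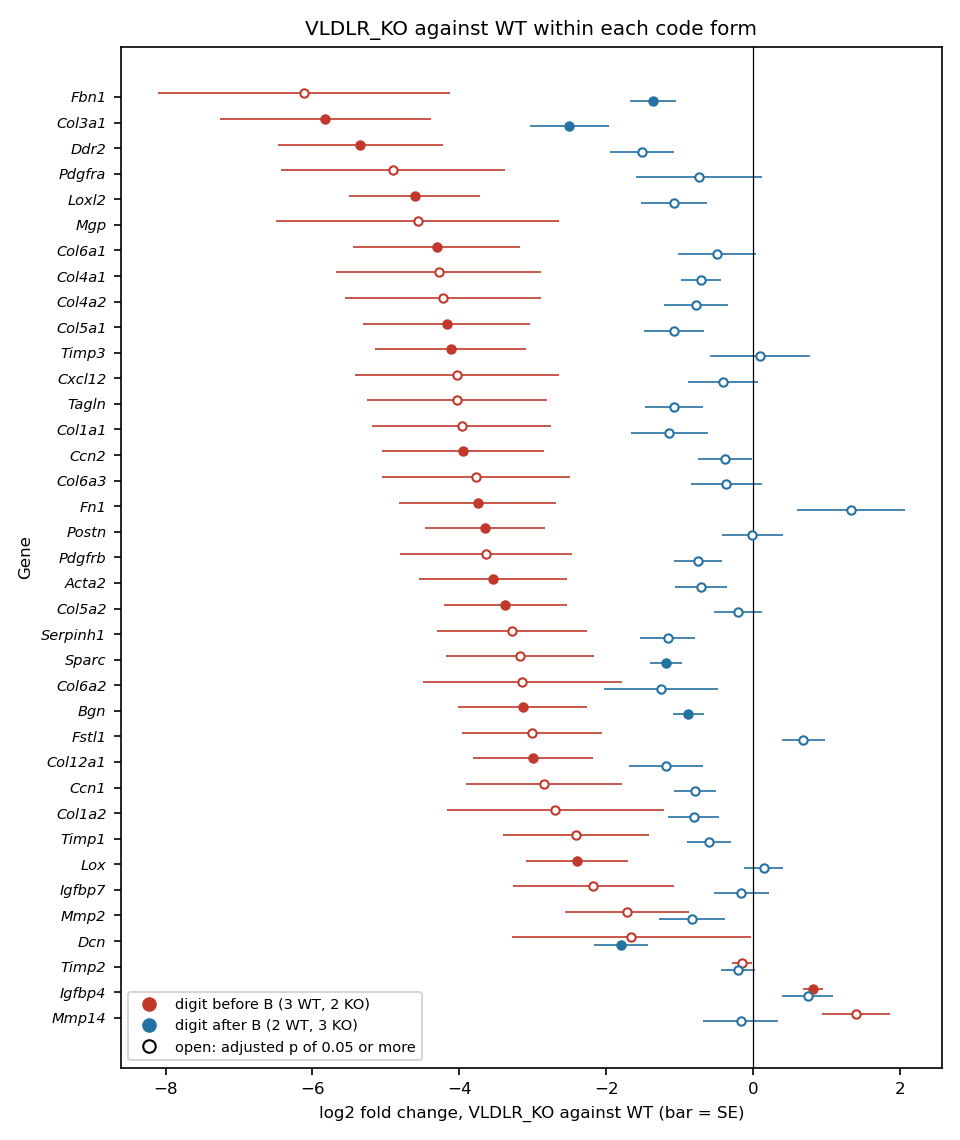
Log2 fold change (horizontal axis, bars are SE) of VLDLR_KO against WT for each tested member, fitted within the libraries with the digit before B (red) and after B (blue), filled where the adjusted p is under 0.05. Most red points lie between -6 and -2 and most blue points between -2 and 0. Igfbp4 lies to the right of 0 in both, and Fn1, Fstl1, Lox, Timp3 and Mmp14 change side.

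The difference between the forms was itself tested, as an interaction. It was called for 7 of 37 members, all with a more negative VLDLR_KO effect before B (background 6.98%): Postn, Fn1, Fstl1, Col5a2, Loxl2, Lox and Timp3. The median interaction was 2.95 on the log2 scale, against 0.01 over all genes. The largest was Fn1, at 5.10 (SE 1.38, adjusted p 0.0285 in edgeR), with -3.75 before B and 1.33 after it. Igfbp4 (-0.06, SE 0.40) and Timp2 (-0.05, SE 0.29) had interactions near 0. Of 36 members tested in both forms 30 were negative in both, and 32 were more negative before B. Without WT 1 or without WT 2, which leaves 1 WT library in the form after B, 0 members were called by edgeR (10 and 17 at an unadjusted p under 0.05), without WT 3 only Postn was, without VLDLR_KO 1 or VLDLR_KO 3 only Fn1, Fstl1 and Postn were, and without WT 5 the count was 4. DESeq2 called 14.

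Marker lists of other cell types were summed per library. For the calls in these lists, 5.42% of all genes were lower and 3.89% higher in VLDLR_KO than in WT by edgeR. Between the code forms 19.3% were called lower after B. Counts called higher after B stand without the share over all genes and are descriptive only. Fibroblast markers, of which 8 of 16 are members, summed to 54.9 to 245 CPM in WT, 27.4 to 204 in ROBO4_KO and 8.26 to 29.0 in VLDLR_KO. WT 3 (245 CPM) and ROBO4_KO 2 (204 CPM) were the highest. The members Col1a1 and Col1a2 alone were at 51.7 and 84.7 CPM in WT 3 and 34.1 and 66.3 CPM in ROBO4_KO 2. Members thus carry much of this sum, and it is not independent of them. Of 10 tested fibroblast markers 2 were called lower in VLDLR_KO than in WT, Pdpn (-3.28, SE 0.72, adjusted p 0.00970 in edgeR) and Col3a1. The fibroblast protease Fap was at 0.0543 to 0.320 CPM and the mesenchymal factors Twist1 and Twist2 at 0 to 0.777 in every library, while Prrx1 reached 13.9 CPM in WT.

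Smooth muscle and pericyte markers (13, of which 3 are members) summed to 20.0 to 164 CPM in WT, 10.7 to 143 in ROBO4_KO and 4.73 to 15.3 in VLDLR_KO, with WT 3 and ROBO4_KO 2 highest again. Mylk (-2.79, SE 0.68), Myl9 (-3.65, SE 0.93) and Cald1 (-2.69, SE 0.81) were called lower in VLDLR_KO by edgeR, 3 of 8 tested. With the form as a covariate Cald1 was no longer called. Myh11 and Des, markers of mature muscle in the same list, stayed at or below 0.693 CPM, while Cald1 reached 61.1 CPM and Cspg4 8.65 CPM. The osteoblast genes Bglap, Ibsp and Sp7 were at 0 to 0.342 CPM and Lepr at most 0.156. Of the same list of 16 marrow stroma and osteoblast markers 6 passed the filter and none was called between VLDLR_KO and WT. Among them Runx2 was at 6.13 to 13.9 CPM, Vcam1 at 2.93 to 53.5 CPM and Kitl at 12.7 to 66.4 CPM. Kitl, Vcam1 and Spp1 were called in the interaction with code form, with the VLDLR_KO effect more negative before B. The summed list, 1768 to 4348 CPM, is mostly Spp1, which macrophages also make.

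Endothelial markers summed to 122 to 260.2 CPM in WT, 86.7 to 226 in ROBO4_KO and 97.8 to 230.4 in VLDLR_KO. Of the 15 genes 4 passed the filter (Vwf, Cdh5, Flt1 and Kdr). Pecam1 and Cdh5 were at most at 1.31 CPM, so other genes carry this sum, which need not stand for endothelial cells. Chondrocyte (0.444 to 3.49 CPM) and B cell markers (0.217 to 1.67 CPM) were near 0 in every library. Adipocyte markers summed to 269.8 to 683 CPM, T and NK cell markers to 12.8 to 55.2 CPM, and erythroid and megakaryocyte markers to 3.14 to 44.5 CPM. Of 9 adipocyte genes 2 passed the filter (Pparg and Fabp4), and of 8 T and NK cell genes 2 (Klrb1c and Cd4). Of 10 erythroid and megakaryocyte genes 1 did (Pf4). These sums may thus rest on few genes and need not stand for a cell type. Neutrophil markers summed to 0.959 to 34.9 CPM. The sums of 3 of these lists separated fully by code form. Neutrophil markers were at 0.959 to 3.10 CPM before B and 16.3 to 34.9 after B (6 of 6 tested called higher after B). Erythroid and megakaryocyte markers were at 3.14 to 7.08 and 24.8 to 44.5 CPM (the 1 gene tested, Pf4, was called higher). Endothelial markers ran the other way, at 203 to 260.2 CPM before B and 86.7 to 144 after B (3 of 4 tested called lower and 1 higher). Macrophage markers summed to 13970 to 20151 CPM in WT and 21153 to 43353 in VLDLR_KO, without overlap and highest in VLDLR_KO 1 and 2. Of 15 tested, 3 were higher and 2 lower in VLDLR_KO. Lyz2, Cd163, Fcgr1 and Adgre1 had the smallest adjusted p among these, in either direction. The list's median log2 fold change was only 0.19, against 0.03 over all genes, so few abundant genes may carry this sum. Whether the share of any of these cell types has a part in the lower matrix genes was not tested.

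**Figure D4:**
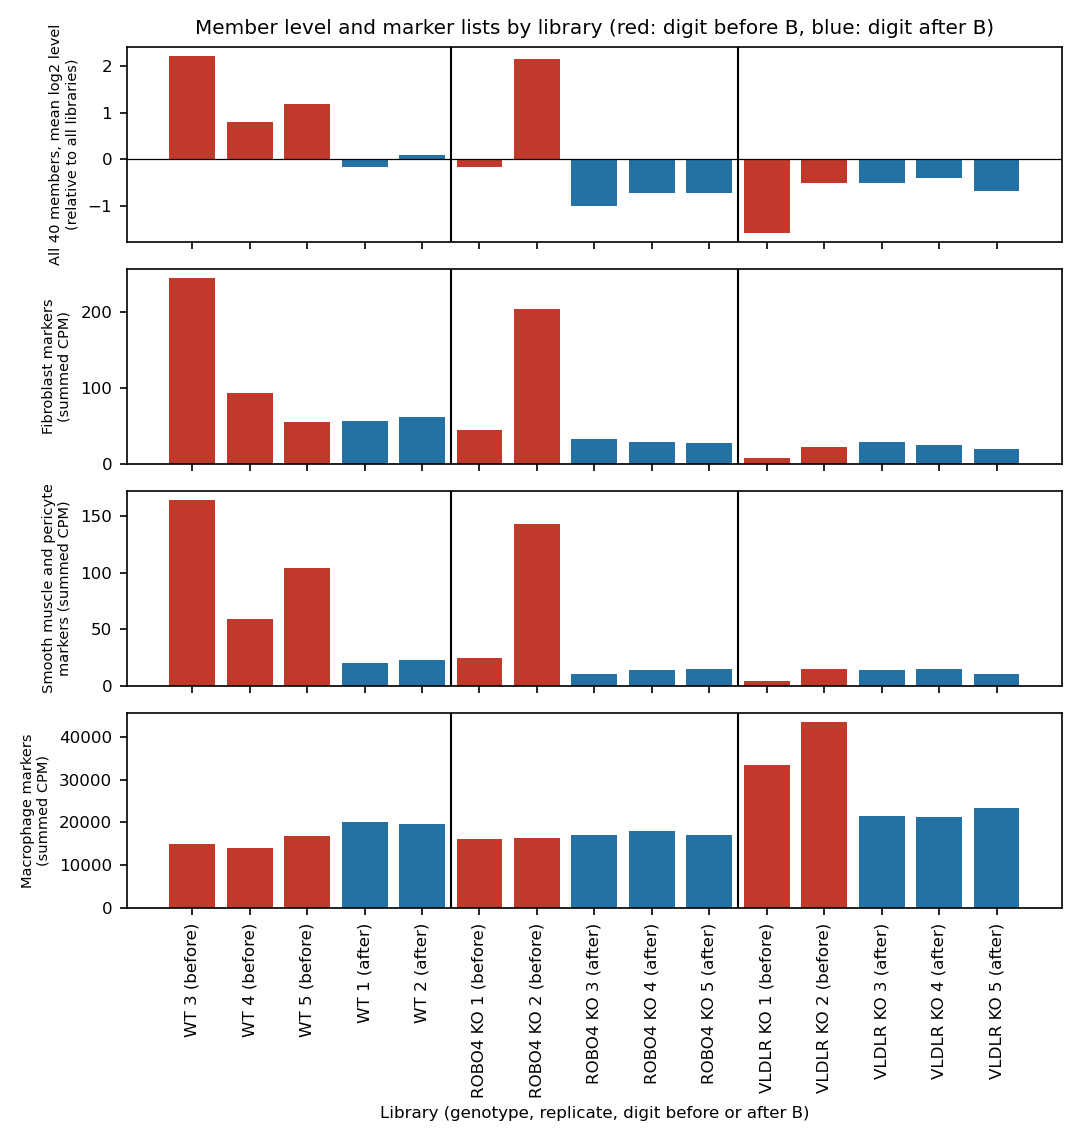
Bars per library (red with the digit before B, blue after it) of the mean log2 level of the 40 members relative to the mean of all libraries (top) and of the summed CPM of fibroblast, smooth muscle and pericyte, and macrophage markers (below). Member and stromal marker bars peak in WT 3 and ROBO4_KO 2, and macrophage bars are highest in VLDLR_KO 1 and 2. Both stromal lists include members.

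Further genes of the same pathways were taken from lists that, except for the YAP and SRF list, leave out the members. For the counts that follow, 5.42% of all genes were called lower and 3.89% higher in VLDLR_KO than in WT. With the form as a covariate 16.8% were called in either direction. Of 38 tested genes of matrix assembly and collagen processing 7 were called lower in VLDLR_KO than in WT and 1 higher by edgeR, with a median log2 fold change of -1.30 against 0.03 over all genes. With the code form as a covariate 7 were lower and 5 higher. Col18a1, the collagen that gives rise to endostatin, was at 8.72 to 33.5 CPM in WT and 1.38 to 4.07 in VLDLR_KO (-3.13, SE 0.42, adjusted p 0.000179 in edgeR). Its WT and VLDLR_KO libraries did not overlap. ROBO4_KO 2 was at 20.6 CPM and the other ROBO4_KO libraries at 10.2 to 16.5 CPM. The collagen lysyl hydroxylases split, with Plod1 lower (-0.94, SE 0.20) and Plod3 higher (0.63, SE 0.15), and Loxl3 (-1.36, SE 0.26) and the elastic fibre protein Fbln5 (-2.02, SE 0.49) were lower.

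Of 26 proteases and inhibitors 1 was called higher and 2 lower (1 and 3 with the form as a covariate), with a median of -0.13. These shares are near those of all genes. The collagenase Mmp13 fell from 13.3 to 23.4 CPM in WT to 3.80 to 10.9 in VLDLR_KO (-1.42, SE 0.25, adjusted p 0.00208 in edgeR), Serpinb2 was lower and Adam15 higher. Of 22 matrix receptors 2 were called lower, the heparan sulfate proteoglycan Sdc2 (-3.34, SE 0.84, adjusted p 0.0210 in edgeR) and the collagen receptor Lair1 (-0.47, SE 0.12, adjusted p 0.0238 in edgeR). With the code form as a covariate 3 receptors were called higher and 8 lower, led by Cd44, Sdc2, Sdc4 and Sdc3.

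TGF-beta drives collagen transcription in fibroblasts. Of 25 tested genes of its signalling 3 were called higher in VLDLR_KO, the receptor Tgfbr2 (0.90, SE 0.13, adjusted p 0.000259 in edgeR) and the inhibitors Smad7 (1.18, SE 0.24) and Skil (0.99, SE 0.26), and the co-receptor Eng was lower (-0.48, SE 0.13). The list's median was -0.01. With the code form as a covariate 6 were called higher and 2 lower. The YAP and SRF list holds Ccn1 and Ccn2 and mixes targets with the factors themselves, such as Yap1, Wwtr1 and Srf. Of its 16 tested genes 4 were called lower, Tpm1 (-0.98, SE 0.13), Cnn2 (-1.62, SE 0.23), Myl9 and Wwtr1 (-3.17, SE 0.87). The list's median was -1.72. In ROBO4_KO against WT 1 of these 16 was called lower and none of the matrix assembly, protease, receptor or TGF-beta genes was called by edgeR. These lists were chosen with earlier results known and are described by their counts and medians only.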

How the data were processed

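Per the labels, libraries were made with a SMARTER mRNA-Seq kit from TRIzol-extracted total RNA and sequenced on a BGISEQ-500. The submitters' processing notes name HISAT and Bowtie2, without versions, and the build GRCm38.p6. The quantifier is not given in the sources used here. The authors deposited estimated counts per gene and transcript (92.6% of gene counts whole), per the file headers. A second set of columns deposited by the authors was taken as FPKM, since the ratio of count to value followed the library totals to within 0.63%. Strand use in counting is not given.

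Counts were rounded and tested in R 4.3.3 with edgeR 4.0.16 (filterByExpr, TMM, quasi-likelihood F tests, two-sided) on all 15 libraries with 1 coefficient per genotype. Benjamini-Hochberg adjustment ran over the 11668 genes left, and an adjusted p under 0.05 is a call. Other fits added the code form as a covariate, its interaction with genotype, or took each form alone. DESeq2 1.42.0 and limma 3.58.1 served as alternatives, beside upper quartile scaling, no filter and each library left out. The scripts were tested on simulated data. Replicates of a group differed by 5.86 to 256 times counting error (chi-square per degree of freedom), so none repeats the counts of another. These values do not show whether replicates come from different mice or dishes.

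The members and lists were chosen with earlier results of these data known. Values in every library are given for members called in any genotype comparison, the 10 with the highest mean CPM and the 10 with the largest ratio of highest to lowest library. For other lists up to 4 called genes are named by smallest adjusted p, and marker genes at or near 0, chosen after their values were seen.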

Additional observations from a re-analysis of the deposited data

Results flagged for a closer look

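Within each group of 5 libraries, the highest or lowest value was compared with its nearest neighbour by Dixon's criterion for the 20 members described library by library and for the mean level of the 40. Of 63 groups 23 had a library standing apart. Chance marks about 1 in 20 groups of unrelated values, a rate that cannot be applied here, since 10 of the members were named for a large ratio of highest to lowest library and the members move together. ROBO4_KO 2 accounted for 18, WT 3 for 3, and VLDLR_KO 1 and VLDLR_KO 4 for 1 each.

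In ROBO4_KO 2 the collagens that stood apart were Col1a1 at 34.1 CPM, Col1a2 at 66.3 CPM, Col3a1 at 6.73 CPM, Col4a1 at 53.3 CPM and Col4a2 at 34.8 CPM. Of the other matrix proteins Fn1 did so at 313 CPM, Sparc at 80.8 CPM, Mgp at 32.0 CPM and Bgn at 117 CPM. Enzymes and inhibitors were Loxl2 at 13.0 CPM, Lox at 44.5 CPM and Timp3 at 15.7 CPM. Ddr2 at 13.8 CPM, Acta2 at 43.2 CPM, Tagln at 23.3 CPM, Fstl1 at 28.9 CPM and Ccn2 at 49.3 CPM completed them. The mean log2 level of the 40 members in this library was 2.16 above the mean of all libraries. In the same library the fibroblast markers summed to 204 CPM and the smooth muscle and pericyte markers to 143 CPM, and their part in these values was not tested. Both sums include members, among them Col1a1, Col1a2, Acta2 and Tagln, so they are not independent of these values.

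In WT 3 the genes that stood apart were Col1a1 at 51.7 CPM, Fn1 at 447 CPM and Fstl1 at 32.3 CPM. Timp2 stood apart in VLDLR_KO 4 at 899 CPM, and the mean level of the 40 members in VLDLR_KO 1, at -1.58.

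For 7 members the effect of VLDLR_KO against WT differed between the code forms by edgeR's interaction test, with the effect more negative where the digit stands before B. The interactions on the log2 scale were 5.10 for Fn1, 4.22 for Timp3, 3.70 for Fstl1, 3.65 for Postn, 3.54 for Loxl2, 3.17 for Col5a2 and 2.55 for Lox. Macrophage markers also summed highest in the VLDLR_KO libraries of that form (33321 and 43353 CPM), and their part was not tested. Few abundant genes may carry that sum. The median interaction over the macrophage list was -0.71, against 0.01 over all genes.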

How the results depend on the processing

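The 4 members called between VLDLR_KO and WT became 24 with DESeq2 and 2 with limma on log2(FPKM + 0.1). They became 15 among libraries coded with the digit before B, 13 without WT 3 and ROBO4_KO 2, 15 without both and with the form as a covariate, and 0 without WT 3 and VLDLR_KO 1. Leaving out single libraries gave 0 to 25. For ROBO4_KO against WT the 0 calls became 5 within the form with the digit after B and 1 without WT 3 and ROBO4_KO 2 with the form as a covariate. For VLDLR_KO against ROBO4_KO they became 6 before B, 1 after B and 10 with DESeq2, and 0 to 2 over single libraries left out. The 18 members called between the forms became 7 without WT 3 and ROBO4_KO 2, and 9 to 27 over single libraries left out. The 7 interactions became 14 with DESeq2 and 0 to 8 over single libraries left out. The 0 member transcripts became 1 with the form as a covariate and 0 to 1 over single libraries left out. Fewer samples enter the fits within a form. For the other settings the cause was not tested. The share of all genes called also moved with the setting, for VLDLR_KO against WT from 9.31% to 16.8% with the form as a covariate. Counts without that share beside them, here and above, therefore describe the calls and not the members.

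The digit in the code repeats between genotypes. With code form and digit as a replicate block, 2 members were called between VLDLR_KO and WT, Col3a1 lower and Igfbp4 higher. Of 12 same-digit pairs 4 correlated above 0.1 (range -0.53 to 0.41). With so few libraries per genotype and form, these values cannot settle whether libraries of the same digit belong together. The labels do not say what the digit means.

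Of the 20 members described library by library, 519 values for VLDLR_KO against WT were recomputed, of which 9 changed sign. Within the form after B these were Fn1 (1.33), Lox (0.14), Timp3 (0.092), Fstl1 (0.68) and Mmp14 (-0.17). Fn1 ran from -1.70 to 0.11 over single libraries left out (0.11 without WT 3), was at 0.42 without WT 3 and VLDLR_KO 1, and 0.11 without WT 3 and ROBO4_KO 2, and Fstl1 at 0.24 without WT 3 and VLDLR_KO 1. Values under about 10 counts, as in most VLDLR_KO libraries for Col3a1, Mgp and Ddr2, limit the precision of the fold changes. Settings that leave out WT 3 with ROBO4_KO 2, and single libraries for the forms and interactions, were chosen after seeing the data.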
